A study of Mus musculus with 20 samples.

Results

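The transcripts described here are those of 9 receptors, several of them known from resting macrophages and microglia: Gpr34, P2ry2, P2ry6, P2ry12, P2ry13, P2ry14, Cx3cr1, Gpr183 and Gpr155. They were taken by gene name from a table of 78409 genes, and each of the 9 names had 1 row (Gpr34 is ENSMUSG00000040229 and Gpr155 is ENSMUSG00000041762). The list was chosen by a reader who already knew results of these data, among them the level of Gpr34 with PBS and after RNY1+/+ fractions, so the levels across the 5 groups and the differences from PBS are given as a description. No p is given for a member against PBS, and nothing is read from how many members passed the thresholds there. Comparisons between source genotypes and between fractions were tested over all genes.

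The cells were wild-type bone marrow-derived macrophages (BMDMs) of female C57BL/6J mice, grown in L929-conditioned medium and used on day 7. Each group had 4 libraries. One group received PBS, and the other 4 received material from the bronchoalveolar lavage fluid (BALF) of mice with ovalbumin-induced airway inflammation that were either RNY1+/+ or RNY1-/-, RNY1 being a small non-coding Y RNA. Thus the genotype named in a group is that of the lavage donor, and the macrophages were wild-type in every group. The lavage had been split by size exclusion into an EV-enriched fraction (EVFx, fractions 1 to 4) and a protein-enriched fraction (ProteinFx, fractions 9 to 20), and both were stored for 5 days before use. Per the study's methods the RNY1-/- mice were made by CRISPR and mice were used at 7 to 16 weeks of age; the PBS group shared the cells and the culture but received no lavage material. EVFx was added at 35000000 particles/µL and ProteinFx at 0.75 µg/µL of protein, so the 2 kinds of fraction were not matched for dose. The labels name neither separate cultures nor separate lavage pools behind the 4 libraries of a group, so the p-values measure the spread between these libraries, which may be technical.

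Gpr34 is a Gi-coupled receptor for lysophosphatidylserine. P2ry12 and P2ry13 respond to ADP and guide microglial processes towards damaged cells, P2ry6 responds to UDP and promotes phagocytosis, P2ry2 responds to ATP and UTP, and P2ry14 responds to UDP-sugars. Cx3cr1 is the receptor of fractalkine, Gpr183 (EBI2) guides leukocytes along oxysterol gradients, and Gpr155 is a lysosomal membrane protein that links cholesterol to mTORC1 through the GATOR1 complex. Several of these transcripts mark unstimulated tissue macrophages and are known to fall when macrophages meet inflammatory stimuli.

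Libraries held 2510005 to 8277366 deduplicated counts, with a median of 5456425. All 10 macrophage markers examined, among them Adgre1, Csf1r and Cd68, were over the floor of 3 counts in every group, and their summed level was 8786 to 13722 CPM, the deposited counts scaled to a common library total. Among markers of other cell types, the summed monocyte and the summed eosinophil and mast cell markers differed between EVFx and ProteinFx without overlap. The sums of neutrophil, dendritic cell, lymphocyte, platelet, and lung epithelial, fibroblast and endothelial markers overlapped between EVFx and ProteinFx. Platelet markers summed to 752 to 1216 CPM over all groups. The summed level of 5 monocyte markers was 30.5 to 59.4 CPM with ProteinFx and 9.22 to 20.0 CPM in the other groups. Among 8 eosinophil and mast cell markers the sum was 12.4 to 21.4 CPM with ProteinFx, 7.17 to 13.5 CPM with PBS and 0.801 to 2.71 CPM with EVFx. Most of it was the chemokine receptor Ccr3 (8.47 CPM with PBS, 15.9 and 12.9 CPM with RNY1+/+ and RNY1-/- ProteinFx, 0.918 and 1.503 CPM with RNY1+/+ and RNY1-/- EVFx). Of the 8, only 1 or 2 were over the floor in a group, and Fcer1a, Epx and Mcpt4 were at 0 in every group. The 9 neutrophil markers summed to 141 to 264 CPM with EVFx, 198 to 352 CPM with ProteinFx and 274 to 331 CPM with PBS, and Ly6g was at 0 in 4 of the 5 groups. The part of these cells in the differences below was not tested, and in bulk RNA fewer cells of a type and less RNA per cell cannot be told apart.

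P2ry12, P2ry13 and P2ry14 are neighbours on chromosome 3, where the longer gene Med12l spans all of them, and P2ry2 and P2ry6 are neighbours on chromosome 7. Counting was strand-specific. Because the neighbouring genes of chromosome 3 had different patterns in these cells (below), the RefSeq windows around their annotated starts are shown with that of Gpr155, the member with the largest tested difference between source genotypes under the main filter. Each window runs from 250 bases before to 50 bases after the start on the minus strand of GRCm38.p6. It is written 5′ to 3′, and capitals mark matches to the motifs searched.
P2ry12, chr3:59262936-59263235: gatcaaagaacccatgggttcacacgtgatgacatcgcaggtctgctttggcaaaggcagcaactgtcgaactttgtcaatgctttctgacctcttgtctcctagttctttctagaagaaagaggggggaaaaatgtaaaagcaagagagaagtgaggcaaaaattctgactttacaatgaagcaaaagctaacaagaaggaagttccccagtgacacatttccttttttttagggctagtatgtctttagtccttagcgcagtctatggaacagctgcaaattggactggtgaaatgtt
P2ry13, chr3:59210833-59211132: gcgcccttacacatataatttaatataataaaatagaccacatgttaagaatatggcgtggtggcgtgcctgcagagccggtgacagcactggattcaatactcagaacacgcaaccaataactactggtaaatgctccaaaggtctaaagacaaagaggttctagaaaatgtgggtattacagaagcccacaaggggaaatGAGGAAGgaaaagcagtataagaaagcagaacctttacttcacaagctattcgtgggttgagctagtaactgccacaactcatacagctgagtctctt
P2ry14, the outermost of 4 windows, chr3:59153443-59153742: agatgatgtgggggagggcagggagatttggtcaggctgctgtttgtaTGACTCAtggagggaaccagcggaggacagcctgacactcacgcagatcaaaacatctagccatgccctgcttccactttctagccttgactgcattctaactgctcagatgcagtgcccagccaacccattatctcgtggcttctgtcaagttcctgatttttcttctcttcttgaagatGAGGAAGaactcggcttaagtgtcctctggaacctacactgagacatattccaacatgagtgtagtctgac
Gpr155, chr2:73386431-73386730: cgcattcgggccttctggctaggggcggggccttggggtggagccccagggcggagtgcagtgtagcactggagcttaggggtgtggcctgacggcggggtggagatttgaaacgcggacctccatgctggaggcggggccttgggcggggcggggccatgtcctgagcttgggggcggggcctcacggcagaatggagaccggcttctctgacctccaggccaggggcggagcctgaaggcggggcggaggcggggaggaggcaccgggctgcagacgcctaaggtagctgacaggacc

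The search covered both strands and 6 motifs. The PU.1 core GAGGAAG was found 48 bases before the start of P2ry13 and 21 bases before that of P2ry14, and 13.6% of all 32851 windows held it. The AP-1 letters TGANTCA, which read alike on both strands, were found 202 bases before the start of P2ry14 and in 7.81% of all windows. No window shown held TATAAA (13.6% of all windows), the NF-kB motif GGGA, any base, TTTCC (0.411%), the ISRE motif GAAA, any 2 bases, GAAA (3.44%), or the MEF2 motif CTA, any 4 bases, TAG (3.69%). One inner window of P2ry14 held TATAAA, and the window of Cx3cr1 held the MEF2 letters. The Gpr155 window was 70.3% G and C, against 42.3% for P2ry12, 42.3% for P2ry13 and 49.3% for P2ry14. Windows were found for 7 of the 9 members, all except Gpr34 and P2ry6. A match is a run of letters and not a bound site.

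Gpr34 was far lower in every treated group than with PBS. With PBS its level was 31.6, 28.6, 34.3 and 26.2 CPM in the 4 libraries, a mean of 30.2 ± 3.54 CPM (SD, n = 4). It was 0 to 0.483 CPM with RNY1+/+ EVFx (0.265 ± 0.212) and 0 to 1.01 CPM with RNY1-/- EVFx (0.393 ± 0.432), where no library had more than 6 counts. Every library given either EVFx was thus far below every PBS library, and the 2 EVFx groups overlapped. With RNY1+/+ ProteinFx the libraries held 0.574, 1.01, 0.503 and 0.521 CPM (0.653 ± 0.243), from 2 to 4 counts each. With RNY1-/- ProteinFx they held 7.93, 5.18, 3.59 and 4.15 CPM (5.21 ± 1.93), from 9 to 42 counts. That group lay above the other 3 treated groups and below PBS, without overlap on either side. Summed over libraries, Gpr34 had 636 counts with PBS and 8 with RNY1+/+ EVFx, a share of the total counts 108 times lower (95% counting interval 54.5 to 251). The same ratio was 72.5 (39.2 to 152) for RNY1-/- EVFx, 47.0 (26.7 to 91.4) for RNY1+/+ ProteinFx and 5.39 (4.37 to 6.70) for RNY1-/- ProteinFx. These intervals, exact for 2 Poisson counts, cover counting error only.

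The ADP receptors P2ry12 and P2ry13 shared their low point in the EVFx groups. P2ry12 was at 9.84, 7.57, 6.40 and 4.09 CPM with PBS (6.98 ± 2.39), at 0.601 to 1.68 CPM with RNY1+/+ EVFx (1.06 ± 0.450) and at 0.673 to 1.94 CPM with RNY1-/- EVFx (1.29 ± 0.570). It was at 13.2, 14.4, 10.6 and 9.54 CPM with RNY1+/+ ProteinFx (11.9 ± 2.28) and at 14.7, 14.4, 14.3 and 9.86 CPM with RNY1-/- ProteinFx (13.3 ± 2.33). The ProteinFx groups overlapped each other, and the highest PBS library lay above the lowest library of RNY1+/+ ProteinFx. P2ry13 was sparse, with 0 to 21 counts per library, and passed the filter in no comparison. Its mean was 2.55 ± 0.565 CPM with PBS, 0.537 ± 0.230 CPM with RNY1+/+ EVFx, 0.262 ± 0.190 CPM with RNY1-/- EVFx, 1.57 ± 0.554 CPM with RNY1+/+ ProteinFx and 1.33 ± 0.286 CPM with RNY1-/- ProteinFx. The PBS mean was the highest, with PBS and RNY1+/+ ProteinFx libraries overlapping, and the RNY1-/- ProteinFx libraries lay above both EVFx groups.

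P2ry14, the UDP-sugar receptor beside P2ry12 and P2ry13, did not share the low point. Its level was 18.6, 16.2, 19.2 and 19.6 CPM with PBS (18.4 ± 1.51), 12.1 to 18.1 CPM with RNY1+/+ EVFx (15.03 ± 2.76) and 16.01 to 26.8 CPM with RNY1-/- EVFx (21.7 ± 4.64). It was 54.5 to 68.0 CPM with RNY1+/+ ProteinFx (60.7 ± 7.22) and 70.1 to 78.3 CPM with RNY1-/- ProteinFx (73.8 ± 3.41). The 3 groups without ProteinFx overlapped, each with the next in order, and both ProteinFx groups lay above all of them.

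P2ry6, the UDP receptor, was at 93.1 to 139 CPM with PBS (118 ± 21.4), 55.3 to 78.0 CPM with RNY1+/+ EVFx (69.6 ± 10.2) and 32.3 to 49.3 CPM with RNY1-/- EVFx (41.6 ± 8.72). The order of these 3 groups held without overlap. With RNY1+/+ ProteinFx it was at 122 to 155 CPM (141 ± 16.7). With RNY1-/- ProteinFx, replicates 1 and 2 were at 165 and 149 CPM and replicates 3 and 4 at 85.7 and 91.3 CPM (123 ± 40.2). The 2 higher libraries of that group were also the deeper ones, with 5293171 and 7149366 counts against 2510005 and 3855450. P2ry2, the ATP and UTP receptor, had means of 4.96 ± 2.29 CPM with PBS, 6.31 ± 1.11 CPM with RNY1+/+ EVFx, 3.65 ± 0.300 CPM with RNY1-/- EVFx, 2.74 ± 0.330 CPM with RNY1+/+ ProteinFx and 1.97 ± 0.555 CPM with RNY1-/- ProteinFx. Its PBS libraries ranged from 2.06 to 7.17 CPM and overlapped all other groups.

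Gpr155 fell into clear steps. It was at 41.6, 37.2, 46.7 and 40.2 CPM with PBS (41.4 ± 3.94), at 1.57 to 3.63 CPM with RNY1+/+ EVFx (3.01 ± 0.977) and at 3.36 to 6.04 CPM with RNY1-/- EVFx (4.53 ± 1.14). It was at 10.9, 12.4, 11.6 and 11.1 CPM with RNY1+/+ ProteinFx (11.5 ± 0.672) and at 39.9, 30.8, 33.1 and 35.5 CPM with RNY1-/- ProteinFx (34.8 ± 3.89). The RNY1-/- ProteinFx libraries overlapped those given PBS and lay above every library of the other treated groups. Gpr183 was at 7.57 to 11.2 CPM with PBS (8.69 ± 1.69), 1.81 to 3.80 CPM with RNY1+/+ EVFx (2.63 ± 0.839) and 3.13 to 7.39 CPM with RNY1-/- EVFx (4.75 ± 1.85). With ProteinFx it was at 4.68 to 6.03 CPM for RNY1+/+ (5.38 ± 0.615) and 8.39 to 11.95 CPM for RNY1-/- (10.4 ± 1.496). For Gpr183 as for Gpr155, RNY1-/- ProteinFx and PBS were the 2 highest groups and RNY1+/+ EVFx the lowest.

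Cx3cr1 was not measurable at this depth. It had 0 to 5 counts per library and 0 counts in 11 of the 20 libraries, and no group mean was above 0.343 CPM. A count of 0 allows up to 0.362 to 1.20 CPM in a single library, depending on its depth.

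**Figure D1:**
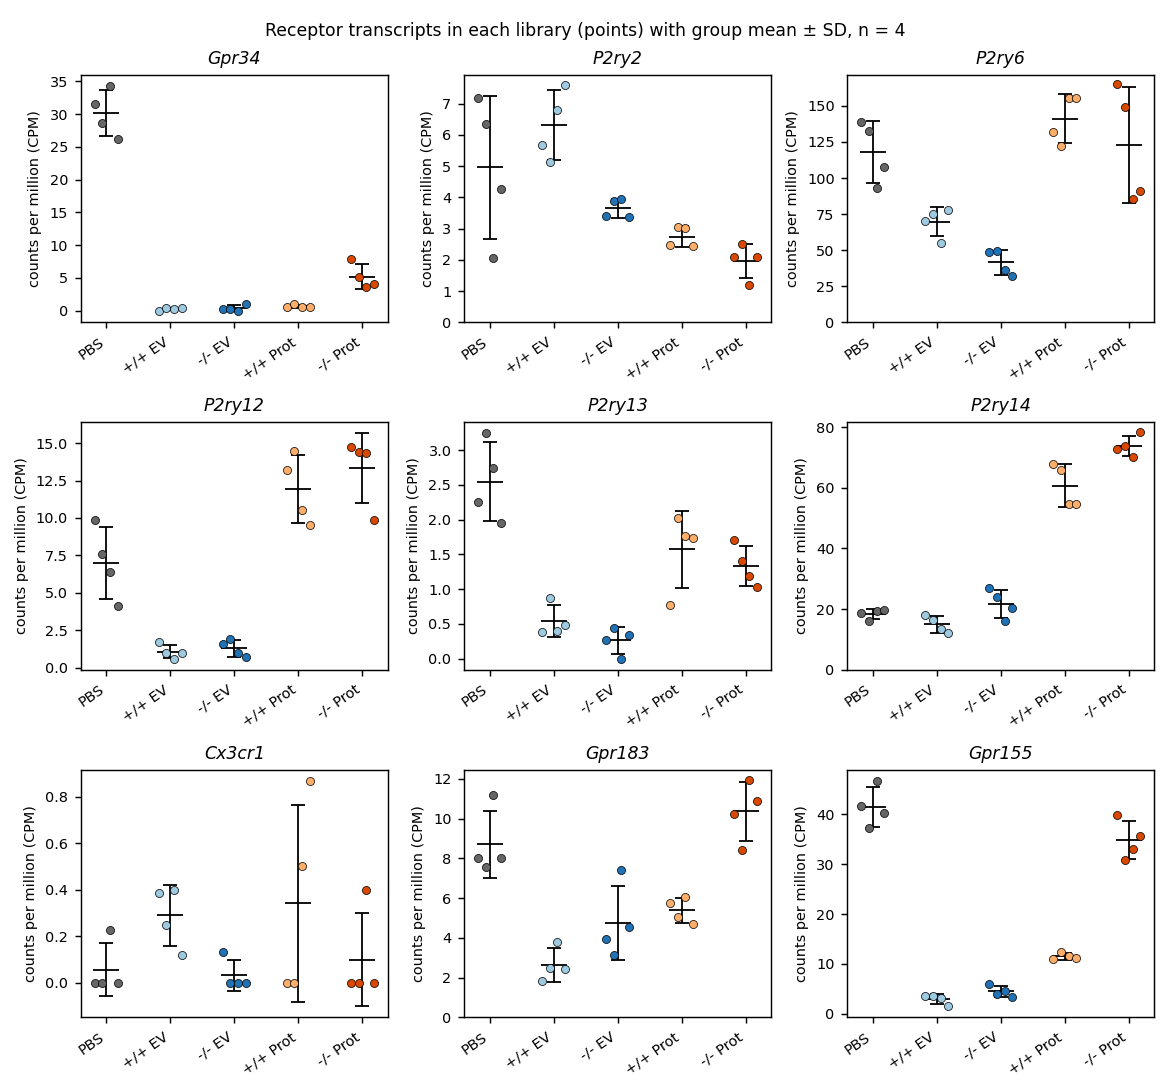
CPM (linear axes, 1 panel per gene) of the 9 receptor transcripts in each of the 20 libraries, 4 points per group, with the group mean as a horizontal line and the SD as an error bar; +/+ and -/- name the RNY1 genotype of the lavage donor, EV is EVFx and Prot is ProteinFx. Gpr34 is at 26.2 to 34.3 CPM with PBS and at most at 1.01 CPM in 3 of the 4 treated groups, Gpr155 is near the PBS level with RNY1-/- ProteinFx only, and P2ry14 is high with both ProteinFx.

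The differences from PBS are given next for each treated group, as a description only. A gene is named as called when its adjusted p (edgeR, Benjamini-Hochberg over all genes tested) was under 0.05 and its log2 fold change beyond 1 in either direction, and 7 of the 9 members passed the filter on low counts in each comparison with PBS, all but P2ry13 and Cx3cr1. As a description, 4 members passed both thresholds lower and 0 higher with RNY1+/+ EVFx, beside 8.18% and 8.24% of the 10802 genes tested. The log2 fold changes were -6.50 (SE 0.32) for Gpr34, -3.61 (SE 0.21) for Gpr155, -2.47 (SE 0.34) for P2ry12 and -1.57 (SE 0.24) for Gpr183. With RNY1-/- EVFx 4 members passed them lower and 0 higher, beside 13.5% and 9.02% of 10733 genes. Gpr34 was at -5.88 (SE 0.35), Gpr155 at -2.94 (SE 0.17), P2ry12 at -2.12 (SE 0.35) and P2ry6 at -1.26 (SE 0.17), while Gpr183 was at -0.67 (SE 0.26). With length and GC trends removed, P2ry6 was at -0.84 there, inside the fold limit, and Spearman's rho between fold change and GC content over all genes was -0.424. The median log2 fold change of the 7 members was -1.57 and -1.26 in the 2 comparisons, where that of all genes was -0.03 in both. Since the members were chosen with differences from PBS known, nothing is read from these medians.

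With RNY1+/+ ProteinFx 2 members passed both thresholds lower and 1 higher, beside 12.3% and 8.96% of 10843 genes. Gpr34 was at -5.34 (SE 0.23), Gpr155 at -1.68 (SE 0.13) and P2ry14 at 1.89 (SE 0.13). With RNY1-/- ProteinFx 2 members passed them lower and 1 higher, beside 7.97% and 6.30% of 10862 genes. Gpr34 was at -2.42 (SE 0.21), P2ry2 at -1.21 (SE 0.38) and P2ry14 at 2.07 (SE 0.12), whereas Gpr155 was at -0.18 (SE 0.13) and Gpr183 at 0.31 (SE 0.20). P2ry12 was at 0.94 (SE 0.25) and 1.00 (SE 0.25) with the 2 ProteinFx, just inside the fold limit. It was beyond the limit without PBS replicate 1 in both (1.14 and 1.21), and at 0.42 and 0.58 with length and GC trends removed. For RNY1-/- ProteinFx it was at 1.00 to 1.03 and past both thresholds with DESeq2, with filterByExpr only, with no filter and in a single fit of all libraries. P2ry2 no longer passed both thresholds without PBS replicate 2 or 4, without RNY1-/- ProteinFx replicate 1, 3 or 4 (-1.28 to -1.08), or with length and GC trends removed (-0.83). The 4 comparisons share the PBS libraries. The differences chose the members.

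**Figure D2:**
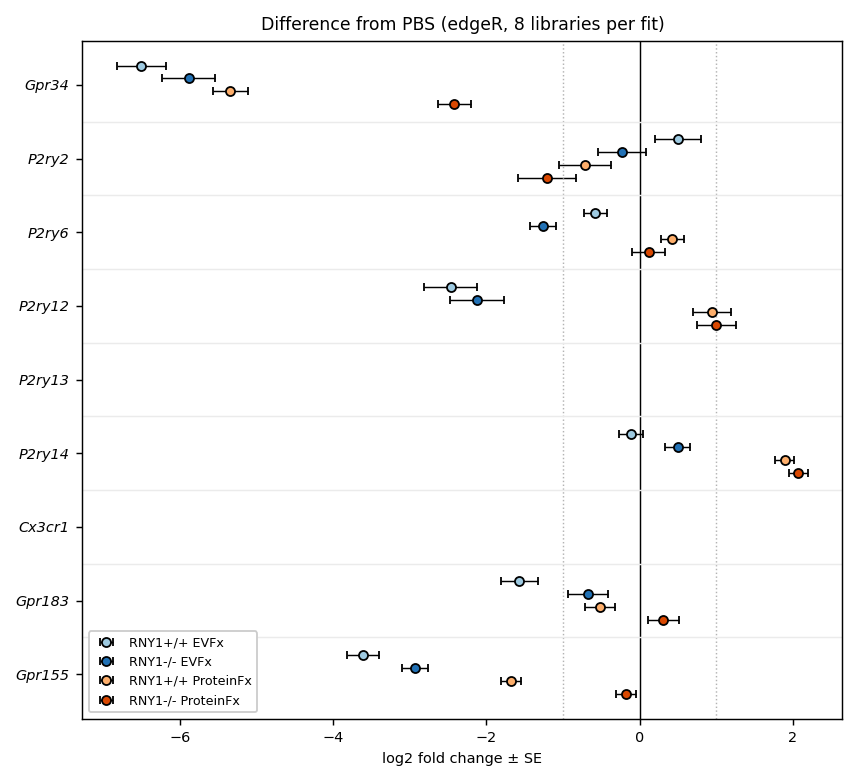
Log2 fold change from PBS with its standard error (horizontal axis) of the 7 members that passed the filter, for each of the 4 treated groups, 4 libraries against 4; dotted lines mark 1 and -1. Gpr34 is negative throughout (-6.50 to -2.42), P2ry14 is positive with both ProteinFx (1.89 and 2.07), and Gpr155 runs from -3.61 with RNY1+/+ EVFx to -0.18 with RNY1-/- ProteinFx.

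The first tested question was whether the donor's RNY1 genotype changed the response of these receptors to ProteinFx. Gpr155, the lysosomal cholesterol sensor, was 2.85-fold higher with RNY1-/- than with RNY1+/+ ProteinFx (log2 fold change 1.51, SE 0.14, edgeR adjusted p = 0.000108), and all 4 RNY1-/- libraries lay above all 4 RNY1+/+ libraries. It was the 1 member called higher among the 5 tested, beside 0.658% of 10480 genes called higher, and 0 were called lower, beside 1.16%. Gpr183 was at 0.83 (SE 0.19, edgeR adjusted p = 0.0232), under the fold limit but without overlap of the groups. P2ry14 was at 0.20 (SE 0.11, edgeR adjusted p = 0.371), P2ry12 at 0.08 (SE 0.18, edgeR adjusted p = 0.865) and P2ry6 at -0.29 (SE 0.18, edgeR adjusted p = 0.423). The approximate 95% intervals of these 3 differences, -0.02 to 0.42, -0.27 to 0.42 and -0.64 to 0.06 on the log2 scale, did not reach the fold limit.

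Gpr34 was left out of that fit because its mean over the 8 libraries was under the limit of 3 CPM, although the groups did not overlap. In a fit without that limit, added after the values were seen, its log2 fold change was 2.94, or 7.65-fold, where 0.657% of 11256 genes were called higher. This is a description with no test, since Gpr34 passes the filter through the group in which it is high, its low RNY1+/+ level was known when the list was made, and that level rests on 12 counts in all. The ratio of summed counts was 8.71 with a 95% counting interval of 4.78 to 17.4. In the alternatives run on this fit, the log2 fold change stayed between 2.53 and 3.17. In the same fit P2ry2 was at -0.47 (SE 0.27, edgeR adjusted p = 0.439).

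In EVFx no member was called between genotypes: 5 passed the filter, beside 0.378% of 10324 genes called higher and 1.96% called lower. With DESeq2 0 were called as well. P2ry2, P2ry6, P2ry14 and Gpr155 had an edgeR adjusted p under 0.05, as did 52.1% of all genes tested. P2ry2 was lower with RNY1-/- EVFx (log2 fold change -0.72, SE 0.18, edgeR adjusted p = 0.00613), as was P2ry6 (-0.67, SE 0.13, edgeR adjusted p = 0.00137). Both uridine nucleotide receptors had no overlap between the groups. P2ry14 was higher (0.62, SE 0.16, edgeR adjusted p = 0.00646), as were Gpr183 (0.90, SE 0.29) and Gpr155 (0.68, SE 0.27, edgeR adjusted p = 0.0479), each with overlapping libraries. Gpr183 was at 2.63 CPM with RNY1+/+ EVFx and passed the limit of 3 CPM through the RNY1-/- group, so its value is a description with no test. Without RNY1+/+ EVFx replicate 3 or without RNY1-/- EVFx replicate 2, Gpr183 passed both thresholds, at 1.08 and 1.07, also a description.

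GC content moved with these differences. Across all genes tested, Spearman's rho between the RNY1-/- against RNY1+/+ EVFx fold change and transcript GC content was -0.654. P2ry2 and P2ry6, the members lower with RNY1-/- EVFx, have transcripts of 56.5% and 55.9% GC, and P2ry14, Gpr155 and Gpr183, the members higher, have 39.4%, 44.1% and 44.9%. With length and GC trends removed from each library, the log2 fold changes were -0.26 for P2ry2 (edgeR adjusted p = 0.276), -0.23 for P2ry6 (edgeR adjusted p = 0.0937), 0.19 for P2ry14 (edgeR adjusted p = 0.363), 0.46 for Gpr155 (edgeR adjusted p = 0.181) and 0.78 for Gpr183 (no test, as above). In ProteinFx the same rho was 0.155, and Gpr155 was at 1.57 with the trends removed. Why fold change and GC content moved together was not tested.

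**Figure D3:**
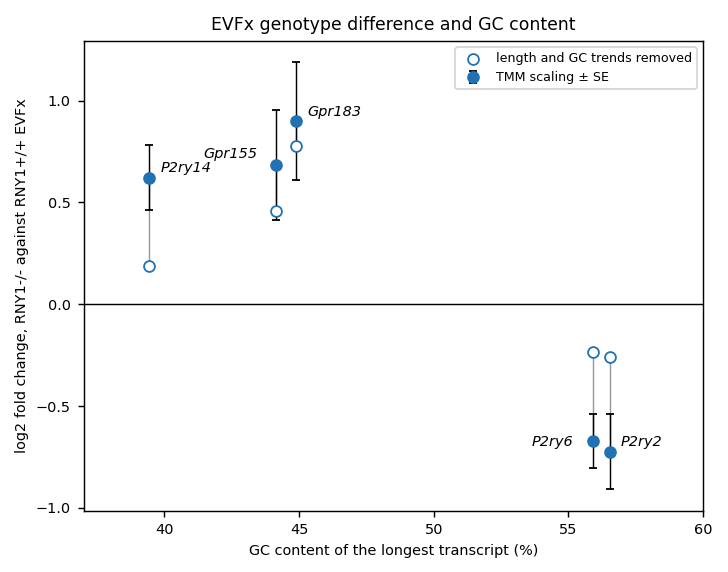
Log2 fold change of RNY1-/- against RNY1+/+ EVFx (vertical axis) of the 5 members that passed the filter, against the GC percent of the longest annotated transcript. Filled points with SE bars are the TMM-scaled fit and open points the fit with length and GC trends removed: every open point is nearer to 0, P2ry14 moving from 0.62 to 0.19 and P2ry6 from -0.67 to -0.23.

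The second question was how the fractions differed from each other in 1 source genotype, with the unmatched doses in mind. For RNY1+/+, 6 members passed the filter. As a description, all 6 passed both thresholds, 5 higher with ProteinFx than with EVFx, beside 6.64% of 10448 genes, and 1 lower, beside 6.78%. Only P2ry14, Gpr155 and P2ry6 were above the limit of 3 CPM in both groups and are read as tested. P2ry12 was 10.6-fold higher (log2 fold change 3.41, SE 0.25), P2ry14 was at 2.01 (SE 0.13, edgeR adjusted p = 9.51e-09) and Gpr155 at 1.94 (SE 0.21, edgeR adjusted p = 2.46e-06). Gpr183 was at 1.07 (SE 0.23) and P2ry6 at 1.02 (SE 0.11, edgeR adjusted p = 2.62e-06). The ATP and UTP receptor P2ry2 went the other way, at -1.21 (SE 0.21). P2ry12 and Gpr183 were at 1.06 and 2.63 CPM with EVFx, and P2ry2 at 2.74 CPM with ProteinFx. They passed the limit of 3 CPM through the group in which they are high, so their values are a description with no test. None of the 6 had overlapping groups, but the share of all genes without overlap was not taken, so nothing is read from this. P2ry6 and Gpr183 lay close to the fold limit. P2ry6 was not called without RNY1+/+ EVFx replicate 3 (0.92), RNY1+/+ ProteinFx replicate 3 (0.98) or RNY1+/+ ProteinFx replicate 4 (0.96), nor Gpr183 without RNY1+/+ EVFx replicate 1 (0.92). Scaled to the study's reference genes Rab14, Arpc2 and Cltc, P2ry6 was at 0.92 and Gpr183 at 0.97. With length and GC trends removed, P2ry2 was at -0.73 and Gpr183 at 0.93, and neither was called. Over all genes, Spearman's rho between fold change and GC content was -0.493 in this comparison and 0.066 in that of RNY1-/-. The part of GC content in these differences was not tested.

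For RNY1-/-, 5 members passed the filter. As a description, 4 passed both thresholds higher with ProteinFx, beside 4.97% of 10427 genes, and 0 lower, beside 4.06%. P2ry12 was 8.74-fold higher (log2 fold change 3.13, SE 0.26), Gpr155 6.78-fold higher (2.76, SE 0.18, edgeR adjusted p = 2.18e-07), P2ry14 at 1.58 (SE 0.14, edgeR adjusted p = 3.56e-06) and P2ry6 at 1.40 (SE 0.20, edgeR adjusted p = 0.000189). P2ry12, 1 of the 4, was at 1.29 CPM with RNY1-/- EVFx and passed the limit through the ProteinFx group, so no test is given for it. Gpr183 was at 0.99 (SE 0.25, edgeR adjusted p = 0.0104). Same-numbered libraries correlated here at 0.198 to 0.326 in their deviations from group means, which does not establish pairing. With the replicate number as a block, Gpr183 was at 1.03 (edgeR adjusted p = 0.000663) and was called. It was also called without RNY1-/- EVFx replicate 3 (1.22) or 4 (1.00), or without RNY1-/- ProteinFx replicate 1 (1.00) or 2 (1.11). Without replicates 1 and 2 of RNY1-/- ProteinFx, P2ry6 was at 0.96 and no longer called. Gpr34 did not pass the 3 CPM limit with all 8 libraries. Its summed counts were 104 against 10, a ratio of 13.5 with a 95% counting interval of 7.03 to 28.9, and with filterByExpr alone its log2 fold change was 3.46. No test is given, since it passes through the group in which it is high. P2ry13, not tested, had no overlap between the RNY1-/- ProteinFx and RNY1-/- EVFx libraries, at a ratio of summed counts of 4.81 with a counting interval from 2.03 upward. The RNY1+/+ and RNY1-/- comparisons share no library.

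**Figure D4:**
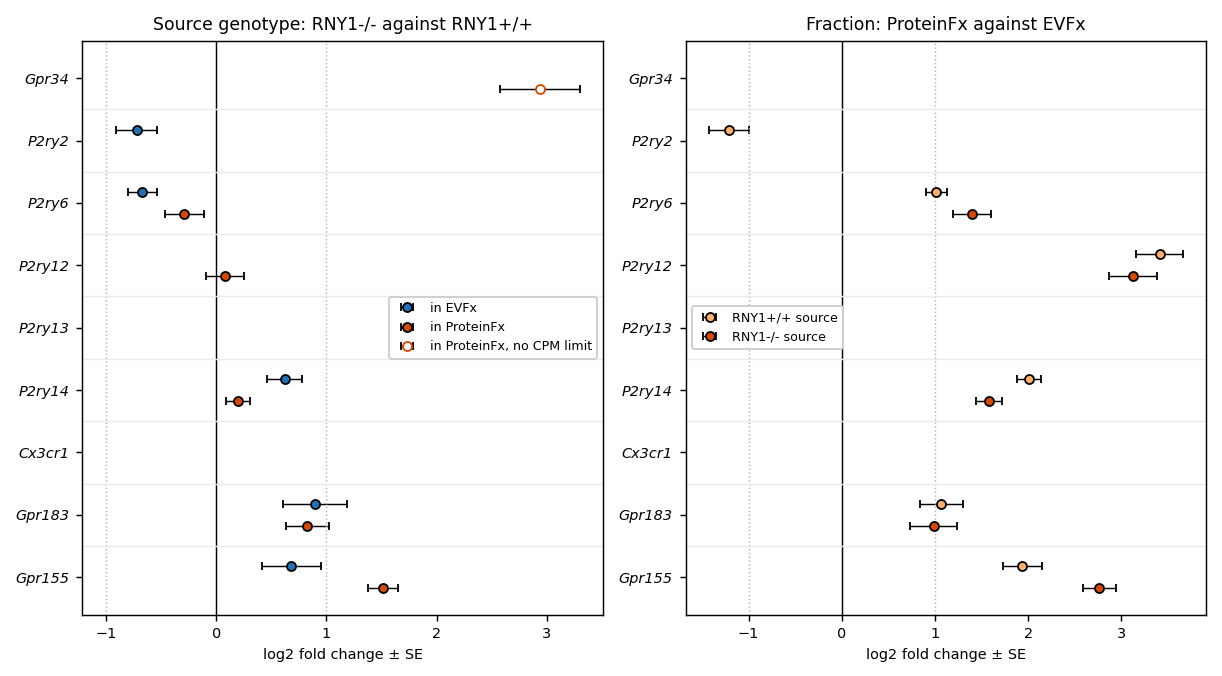
Log2 fold changes with standard errors (horizontal axes) of the members that passed the filter. The left panel is RNY1-/- against RNY1+/+ within each fraction, and the right panel is ProteinFx against EVFx within each source genotype. Each point rests on 4 libraries against 4, and dotted lines mark 1 and -1. On the left Gpr155 in ProteinFx (1.51) and, in the fit without a CPM limit, Gpr34 (2.94, open point, a description with no test) are beyond 1. On the right P2ry12 is above 3 for both sources and P2ry2 is at -1.21, each a description with no test.

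Whether the genotype difference was unlike in the 2 fractions was tested as an interaction over the 16 treated libraries. Of the 6 members tested 0 were called, beside 7.76% of 10451 genes called in either direction, and by unadjusted p under 0.05 there were 2, P2ry14 and Gpr155, as were 46.8% of all genes. The interaction of Gpr155 was 0.83 (SE 0.29, edgeR adjusted p = 0.0362), its genotype difference being larger in ProteinFx than in EVFx but the gap under the fold limit. P2ry14 was at -0.42 (SE 0.20, edgeR adjusted p = 0.0985). The other 4 ranged from -0.28 to 0.39, and with DESeq2 0 members were called. The EVFx libraries hold 0 to 6 counts of Gpr34, so its genotype difference in EVFx could not be resolved at this depth.

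Genes that make, release or destroy the ligands were examined as fixed lists, chosen like the members with earlier results known. Their counts stand beside the shares of all genes called: 6.64% higher and 6.78% lower with ProteinFx than with EVFx in RNY1+/+, 4.97% and 4.06% in RNY1-/-, 0.658% and 1.16% between genotypes in ProteinFx, and 0.378% and 1.96% between genotypes in EVFx. Among 21 genes of nucleotide release and breakdown, 10 were tested between the fractions, and in RNY1+/+ 2 were called higher and 1 lower with ProteinFx. Panx1, a channel that releases ATP, was at 4.28 ± 1.47 CPM with RNY1+/+ ProteinFx and 64.2 ± 8.14 CPM with RNY1+/+ EVFx (log2 fold change -3.96, SE 0.17, edgeR adjusted p = 1.78e-10). Entpd1 (CD39), which removes phosphates from ATP and ADP, was at 43.9 ± 6.70 and 17.9 ± 2.26 CPM (1.28, SE 0.12, edgeR adjusted p = 6.23e-07). Enpp4, another ectonucleotidase, was at 1.52 in RNY1+/+ (SE 0.19, edgeR adjusted p = 8.23e-06), and it was lower with RNY1-/- than with RNY1+/+ ProteinFx (-1.11, SE 0.15, edgeR adjusted p = 0.00101). In RNY1-/-, Panx1 was at -3.27 (SE 0.24, edgeR adjusted p = 7.54e-07) and Entpd1 at 1.56 (SE 0.15, edgeR adjusted p = 8.86e-06), 1 call in each direction among 10.

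Of 11 other P2Y and P2X receptors, 3 or 4 were tested between fractions and between genotypes. The 1 call was P2rx7, the ATP-gated channel upstream of the NLRP3 inflammasome, higher with RNY1-/- ProteinFx than with RNY1-/- EVFx (1.19, SE 0.17, edgeR adjusted p = 0.000219), from 11.4 ± 1.26 to 28.8 ± 7.69 CPM. Of the 4 adenosine receptors, 1 or 2 were tested in a comparison. Adora2a was at 1.42 ± 0.669 CPM with RNY1-/- EVFx and 5.98 ± 2.61 CPM with RNY1+/+ EVFx (-1.98, SE 0.38). It passed the limit of 3 CPM through the group in which it is high, so this is a description with no test. Adora2b was lower with RNY1-/- than with RNY1+/+ ProteinFx (-1.03, SE 0.23, edgeR adjusted p = 0.0209).

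Around Gpr34, 6 of 10 genes of lysophosphatidylserine receptors and enzymes were tested, and in each source genotype 1 was called higher and 1 lower with ProteinFx than with EVFx. The phospholipase Ddhd1 was at 327 ± 27.6 against 119 ± 4.06 CPM in RNY1+/+ (1.46, SE 0.09, edgeR adjusted p = 3.64e-09), and Gpr132, a G protein-coupled receptor of macrophages, at 4.49 ± 1.15 against 16.8 ± 3.73 CPM (-1.90, SE 0.21, edgeR adjusted p = 3.04e-06). Between genotypes 0 of the 6 were called in either fraction. Of 4 enzymes of the Gpr183 ligands, Cyp27a1, a sterol hydroxylase, was higher with RNY1-/- than with RNY1+/+ ProteinFx (1.01, SE 0.18, edgeR adjusted p = 0.00584). Cyp27a1 was also higher with ProteinFx than with EVFx in both genotypes (1.20 and 1.92), and Hsd3b7, which metabolises oxysterols, was lower in RNY1+/+ (-1.21, SE 0.12, edgeR adjusted p = 7.18e-07). Of the 12 GATOR1 and Ragulator partners of Gpr155, 11 were tested and 0 called between genotypes or between fractions, with medians of -0.25 to 0.15, where all genes had -0.02 to 0.03. In the interaction 2 of these, Lamtor4 (1.03) and Lamtor2 (1.00), were called close to the fold limit, beside 7.76% of all genes. Spearman's rho between the interaction and GC content over all genes was 0.585. None of the 3 fractalkine pathway genes tested, which include the sheddases Adam10 and Adam17, was called in these 4 comparisons.

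Other receptors of resident macrophages and microglia had calls in the direction of P2ry12 more often than in the other. Of 23 tested, 10 were called higher and 2 lower with RNY1+/+ ProteinFx than with RNY1+/+ EVFx, and 10 higher and 1 lower in RNY1-/-, with medians of 0.79 and 0.77. Of all genes, 6.64% were called higher and 6.78% lower in RNY1+/+, and 4.97% and 4.06% in RNY1-/-. The counts include Ccr2, at 1.065 and 1.33 CPM with RNY1+/+ and RNY1-/- EVFx, which passed the limit of 3 CPM through the ProteinFx groups. The mannose receptor Mrc1 was at 598 ± 124 against 54.3 ± 6.47 CPM in RNY1+/+ (3.46, SE 0.14, edgeR adjusted p = 9.11e-11), and the proton-sensing receptor Gpr65 at 184 ± 7.92 against 32.2 ± 5.71 CPM (2.51, SE 0.11, edgeR adjusted p = 1.44e-10). Between genotypes in ProteinFx, 2 were called higher with RNY1-/-, the chemokine receptors Ccr2, which is also among the monocyte markers above (1.55, SE 0.19, edgeR adjusted p = 0.000505) and Cxcr4 (1.13, SE 0.17, edgeR adjusted p = 0.00231). Gpr84, a receptor of medium-chain fatty acids, was lower (-1.97, SE 0.26, edgeR adjusted p = 0.000735). In EVFx 0 of 21 were called. Among 38 genes of G proteins, receptor kinases, arrestins and RGS proteins, 31 were tested. With ProteinFx 4 were called higher and 2 lower in each genotype, beside the shares of all genes given above for the fractions. Among them Rgs18 (1.67 and 1.51) and Gnb4 (2.21 and 1.49) were higher and the receptor kinase Grk3 (-1.24 and -1.62) was lower. Gnb4 was at 2.91 CPM with RNY1+/+ EVFx and passed the limit of 3 CPM through the ProteinFx group. Its 2.21 is therefore a description with no test. Of 23 genes that host members or lie on the same chromosomes nearby, 11 were tested in RNY1+/+ and 10 in RNY1-/-. Gpr18, a neighbour of Gpr183, was lower with ProteinFx in RNY1+/+ (-1.33), and Maoa, which adjoins no member, was lower in both (-1.30 and -1.47). Gpr18 was at 1.69 CPM with RNY1+/+ ProteinFx and 4.36 CPM with RNY1+/+ EVFx. It passed the limit of 3 CPM through the EVFx group, so its value is a description with no test.

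The genes most like each member over the 20 libraries were taken from 8607 genes with a mean of at least 10 CPM in 1 group or more, by Pearson's r of log2 CPM. The libraries share 5 treatments, so r mostly repeats the group pattern and carries no p. For Gpr34 the nearest were Slc46a3 (0.971), Smim14 (0.960) and Rgs2 (0.959). Slc46a3, a lysosomal transporter, had means of 72.4 CPM with PBS, 9.08 and 9.66 CPM with EVFx, 10.3 CPM with RNY1+/+ ProteinFx and 28.1 CPM with RNY1-/- ProteinFx. For Gpr155 they were Rnf150 (0.983), Deptor (0.981) and Sgpp1 (0.978). Deptor, a subunit that inhibits mTOR, went from 29.1 CPM with PBS to 2.94 and 4.16 CPM with EVFx, and was at 10.2 CPM with RNY1+/+ and 22.2 CPM with RNY1-/- ProteinFx.

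Near P2ry12 were Nudt19 (0.974) and Zfp36l1 (0.970). Zfp36l1, an RNA-binding protein that promotes mRNA decay, was at 213 CPM with PBS, 33.3 and 55.6 CPM with EVFx and 326 and 479 CPM with ProteinFx. P2ry14 ran with Ifi207 (0.990), Tsc22d3 (0.990) and Cysltr1 (0.986). Tsc22d3, known as a glucocorticoid-induced gene, was at 212 CPM with PBS, 155 and 235 CPM with EVFx and 585 and 644 CPM with ProteinFx. P2ry6 ran with Slc66a1 (0.973), Sdc4 (0.959) and Efhd2 (0.950), and Gpr183 with Gng10 (0.949), Klhl9 (0.934) and Acadm (0.928). Among the members themselves r was highest for Gpr34 with Gpr155 (0.855), Gpr183 with Gpr155 (0.841) and P2ry6 with P2ry12 (0.830), and lowest for Gpr34 with P2ry14 (-0.03).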

How the data were processed

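Polyadenylated RNA of 20 BMDM libraries was sequenced from the 3′ end with UMIs, in 1 batch per the labels. Per the labels and the study's methods, the authors trimmed reads with fastp 0.24.0, aligned them with STAR 2.7.11 to GRCm39 (annotation release not given in the sources used here), removed UMI duplicates and counted with featureCounts (Subread 2.1.1), strand-specific and with multi-mapping reads split, so the values the authors deposited are estimated counts, with each library's CPM beside them. No value of a member was fractional. Rows without a gene name, 0.678% of all counts, kept their gene IDs and stayed in.

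Counts were rounded and each pair of groups was fitted with edgeR 4.0.16 (quasi-likelihood test, TMM scaling, filterByExpr, and genes averaging under 3 CPM in the 8 libraries left out), with Benjamini-Hochberg adjustment over all genes tested. A call needed an adjusted p under 0.05 and a log2 fold change beyond 1. The script was tested on simulated data. Alternatives were DESeq2, other scalings and filters, no fold limit, a single fit of all libraries, a replicate block, length and GC trends removed, thinned counts and left-out libraries.

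The members and lists were chosen with earlier results of these data known. Genes named were the 9 members, of each other list up to 3 called genes with the largest fold change in a comparison described, and for each member with at least 10 CPM in a group the 3 genes with the highest r. Some genes that this rule names are not reported here. Depth was 2510005 to 8277366 counts per library, where 3 counts are 0.362 to 1.20 CPM. Libraries of 2 groups share replicate numbers. Deviations of same-numbered libraries from their group means correlated at over 0.1 for every number in RNY1-/- EVFx against PBS (0.117 to 0.281) and RNY1-/- ProteinFx against RNY1-/- EVFx (0.198 to 0.326), not in the other 6 comparisons. The highest values were in RNY1-/- ProteinFx against PBS, at 0.425, 0.512 and 0.574 for replicates 1 to 3, with 0.008 for replicate 4. Differently numbered libraries were not compared and the labels do not say what a number shares, so pairing is not established. Sequences are RefSeq windows of GRCm38.p6. GC content is that of the longest GENCODE vM21 transcript.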

Additional observations from a re-analysis of the deposited data

Results flagged for a closer look

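Single libraries that stood apart from the other 3 of their group were found in 6 of 45 member and group combinations, where chance flags about 1 in 20 for continuous values. For 3 of the 6, all Cx3cr1, a single count beside 0s sets the flag by construction. Gpr34 with RNY1+/+ ProteinFx had its highest library at 1.01 CPM, from 4 counts. P2ry12 with RNY1-/- ProteinFx had its lowest library at 9.86 CPM. Gpr183 with PBS had its highest library at 11.2 CPM. Cx3cr1 had a lone library with 1 count in 3 groups, at 0.229 CPM with PBS, 0.131 CPM with RNY1-/- EVFx and 0.398 CPM with RNY1-/- ProteinFx, against 0 in the others.

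The genotype difference of Gpr155 was larger in ProteinFx than in EVFx by 0.83 on the log2 scale (edgeR interaction test, adjusted p = 0.0362), which is under the fold limit used for calls.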

How the results depend on the processing

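The direction of the differences past both thresholds of Gpr155, P2ry12, P2ry14, P2ry6, Gpr183 and P2ry2 between genotypes and fractions was kept in every alternative run. The cause of the changes below was not tested. Without the fold limit, called members went from 3 to 6 in RNY1+/+ ProteinFx against PBS, from 0 to 5 between genotypes in EVFx, from 1 to 2 between genotypes in ProteinFx and from 0 to 1 in the interaction, where 55.2%, 52.1%, 5.54% and 33.0% of all genes passed. The count against PBS is a description, and the 5 in EVFx include Gpr183, described above with no test. Between genotypes in ProteinFx the count was also 2 with filterByExpr only, with no filter, with all 20 libraries in one fit and without the pair of replicates 1 and 2 of RNY1-/- ProteinFx. With filterByExpr only, the member added was Gpr34, described above with no test. In the interaction it was 1 with no filter and with length and GC trends removed. With 1 library left out the counts ran from 0 to 1 between genotypes in EVFx, 1 to 2 between genotypes in ProteinFx and 0 to 1 in the interaction, where Gpr155 was called without RNY1+/+ EVFx replicate 4 (1.06) or RNY1-/- EVFx replicate 1 (1.04). The 1 in EVFx was Gpr183, a description with no test.

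Signs turned for uncalled values. P2ry14 in RNY1+/+ EVFx against PBS was at 0.0335 with thinned counts, and P2ry2 in RNY1-/- EVFx against PBS at 0.21 with length and GC trends removed. P2ry6 in RNY1-/- ProteinFx against PBS ran from -0.0358 to 0.24 with 1 library left out and was at -0.30 without the pair 1 and 2. Between genotypes in ProteinFx, P2ry6 was at 0.0138 without the pair 3 and 4, and P2ry12 ran from -0.0113 to 0.18 with 1 library left out and was at -0.0443 without the pair 1 and 2. In the interaction with length and GC trends removed P2ry2 was at -0.27, P2ry6 at -0.0923, P2ry12 at 0.13, P2ry14 at 0.0839 and Gpr183 at 0.0828. There P2ry2 was at -0.27 with thinned counts and P2ry6 at -0.0268 without the pair 1 and 2. Gpr183 was at 0.0861 with total counts, 0.0192 with no filter and 0.16 without the pair 1 and 2, and ran from -0.26 to 0.15 with 1 library left out. Scaling by total counts moved the median of all genes by -0.24 to 0.17.

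With the replicate number as a block, called members were 0 between genotypes in EVFx, 1 between genotypes in ProteinFx, 6 between fractions in RNY1+/+ and 0 in the interaction, and beyond Gpr183 in RNY1-/- (1.03) no member's call changed. The 6 include P2ry12, Gpr183 and P2ry2, which are described above with no test. Depth limits Gpr34 in EVFx, P2ry13 and Cx3cr1, at 0 to 21 counts per library.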
